A study of Mus musculus with 2 samples.

Results

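A set of 10 genes of the pancreatic acinar cell was followed in RNA from T cells of the small intestine. They encode 9 digestive enzymes or cofactors (Ctrb1, Ctrl, Try5, Cela3b, Cpa1, Cpb1, Pnliprp1, Pnliprp2 and Clps) and a zymogen granule protein (Sycn). These 10 of the 19937 genes with a probe set of their own were chosen because most of them were dimmer in the impaired sample while Clps and Pnliprp2 were not. The difference between the samples therefore chose the members, and their values are given as a description. Each member had a single probe set.

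The study profiled Tr1-cells (type 1 regulatory T cells, CD4 T cells that make IL-10) on 1 array per genotype. One sample, called wildtype, had a functional IL-10 receptor. The other, called impaired, was taken from CD4-DNIL-10R transgenic mice, whose T cells carry a dominant-negative form of that receptor driven from Cd4 regulatory sequence. Mice of both genotypes had been given anti-CD3 antibody (clone 2C11, 15 μg into the peritoneum, 2 injections on alternate days) and were killed 4 or 48 hours after the last one. Which of these times applies to which sample, the age, strain and number of the mice, and how cells were sorted are unknown here. Values are log2 RMA expression, in which a difference of 1 is 2-fold, and differences are impaired minus wildtype. Neither genotype had a second array, so nothing below was tested and no value has a replicate error.

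Acinar cells of the pancreas make the enzymes that digest protein, fat and starch in the intestine. The proteases are stored as inactive zymogens in granules, are secreted into the duodenum, and are activated there in a cascade that starts with trypsin. Transcription of these genes in acinar cells is driven by the PTF1 complex, which holds Ptf1a and Rbpjl and binds a bipartite site of an E-box and a TTTCCC-type box. Neither T cells nor the intestinal wall are known as the main source of most of these enzymes.

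RefSeq promoter sequences (build GRCm38.p6) were at hand for 8 of the 10 members. Those of Try5 and Clps were not analysed here. The upstream stretches of 4 members, each the 250 bases before the annotated start, are printed to set members with a large difference (Ctrb1, Cela3b, Pnliprp1) beside a member with nearly none (Pnliprp2). Capitals mark CACCTG (or CAGGTG, its reverse complement) and TTTCCC (or GGGAAA), and E-boxes of other letters are left in lower case.
Ctrb1, chr8:111691011-111691260, minus strand: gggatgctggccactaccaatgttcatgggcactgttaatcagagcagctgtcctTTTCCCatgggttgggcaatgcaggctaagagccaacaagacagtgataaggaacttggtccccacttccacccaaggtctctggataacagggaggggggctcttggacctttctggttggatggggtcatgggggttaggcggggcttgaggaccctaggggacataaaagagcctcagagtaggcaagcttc
Cela3b, chr4:137430521-137430770, minus strand: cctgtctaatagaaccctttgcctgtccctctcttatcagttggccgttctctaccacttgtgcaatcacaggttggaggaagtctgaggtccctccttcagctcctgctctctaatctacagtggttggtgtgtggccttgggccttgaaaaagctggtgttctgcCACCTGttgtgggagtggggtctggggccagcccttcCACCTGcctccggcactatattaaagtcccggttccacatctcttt
Pnliprp1, chr19:58728637-58728886, plus strand: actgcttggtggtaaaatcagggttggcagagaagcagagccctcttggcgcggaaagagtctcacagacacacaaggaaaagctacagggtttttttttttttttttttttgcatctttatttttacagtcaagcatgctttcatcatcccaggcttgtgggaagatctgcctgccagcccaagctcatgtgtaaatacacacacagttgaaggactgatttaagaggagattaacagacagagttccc
Pnliprp2, chr19:58759473-58759722, plus strand: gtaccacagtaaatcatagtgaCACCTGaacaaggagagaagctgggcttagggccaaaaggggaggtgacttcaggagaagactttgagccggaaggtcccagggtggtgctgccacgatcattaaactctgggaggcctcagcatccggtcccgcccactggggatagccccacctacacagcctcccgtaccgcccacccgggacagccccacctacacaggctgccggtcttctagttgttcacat
The Ctrb1 stretch held 1 match to TTTCCC, 195 bases before the start, and an E-box of other letters, CAGCTG, at 205 bases. The Cela3b stretch held CACCTG at 83 and at 46 bases before the start, and Pnliprp2 held it at 228 bases before the start. The Pnliprp1 stretch held neither CACCTG nor TTTCCC, but 2 E-boxes of other letters. Across the 8 members with a promoter, searched on both strands, 4 held CACCTG, against 17.2% of all 32851 promoters in the same window. TTTCCC was in 2 of 8 (21.9% of all promoters), the general E-box CANNTG, which includes CACCTG, in 7 of 8 (66.2%), and TATAAA in 0 of 8 (12.4%). A match is a description of the letters and not a site. Of these 8 members Pnliprp2 alone was not 2-fold dimmer, so motifs could not be set against the differences.

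All 10 members lay at or above the floor in the wildtype sample, and 9 did in the impaired sample. The floor, 6.91, was the median of the probe sets' mean levels, and a gene was kept when its brighter sample reached it. Of the 10 members, 8 were at least 2-fold dimmer in the impaired sample. Of all 11124 genes past the floor, 22 were (0.198%), and 162 (1.46%) were at least 2-fold brighter. By sign alone, 5582 of the 11124 were above 0 and 5501 below. The median difference of the members was -1.73, beside 0.0025 over all genes past the floor. Because the members were chosen on this contrast, nothing is read from their count against that background.

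**Figure D1:**
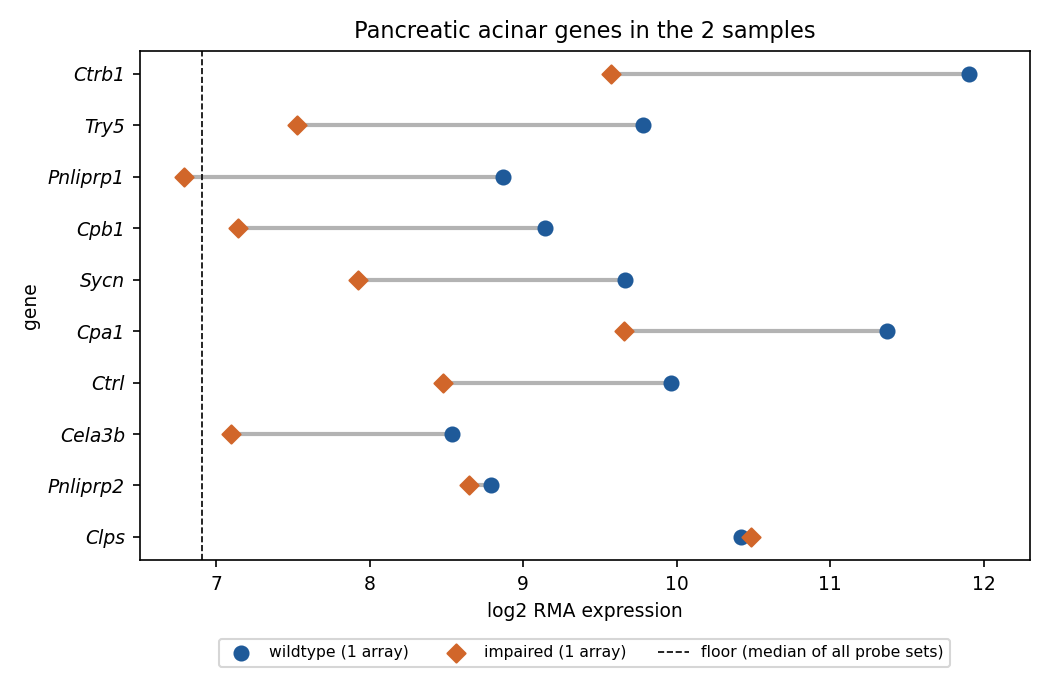
Log2 RMA expression (horizontal axis) of the 10 acinar genes (vertical axis, ordered by difference) in the wildtype array (circles) and the impaired array (diamonds), with a line joining the values of a gene and a dashed line at the floor of 6.91. In 8 genes the diamond lies left of the circle (differences of -2.33 to -1.44), whereas for Pnliprp2 and Clps the symbols nearly coincide.

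The endopeptidases, which cut within proteins, were all dimmer in the impaired sample. Ctrb1, chymotrypsinogen B, stood at 11.91 in wildtype and 9.57 in impaired cells, a difference of -2.33 or 5.04-fold. It had the second lowest difference of all 11124 genes, and its dimmer value still lay 2.67 over the floor. Ctrl, a chymotrypsin-like protease, stood at 9.96 and 8.47, a difference of -1.49 (2.80-fold). The differences of these chymotrypsins lay 0.84 apart on the log2 scale.

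Try5 encodes a trypsin, the class of protease that activates the other zymogens. It stood at 9.78 in wildtype and 7.53 in the impaired sample, a difference of -2.26 (4.78-fold) and the third lowest of all genes. Trypsin genes have near-identical copies, so part of the Try5 signal may belong to another trypsin. Cela3b, a chymotrypsin-like elastase, stood at 8.53 and 7.09, a difference of -1.44 (2.72-fold). Its impaired value lay only 0.19 over the floor, where RMA compresses folds. Among the members at least 2-fold dimmer, Cela3b was the nearest to that limit, and on its other side the nearest member was Pnliprp2.

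Both carboxypeptidases, which remove single residues from the end of peptides, were dimmer in the impaired sample by similar amounts. Cpa1, carboxypeptidase A, which prefers aromatic and aliphatic residues, stood at 11.37 in wildtype and 9.66 in the impaired sample (-1.71, 3.28-fold). Cpb1, carboxypeptidase B, which removes the basic residues that trypsin leaves, stood at 9.14 and 7.14 (-2.0, 3.99-fold). The 2 differences lay 0.28 apart, and the impaired value of Cpb1 was 0.24 over the floor.

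The members for fat digestion split. Pnliprp1, pancreatic lipase-related protein 1, stood at 8.87 in wildtype and 6.79 in the impaired sample, a difference of -2.08 (4.22-fold). The impaired value lay under the floor, so the size of this difference is uncertain, and adding an offset of 32 before taking logs gave -1.81. Pnliprp2, the related lipase that also cleaves galactolipids and phospholipids, stood at 8.79 and 8.65, a difference of -0.14. Clps, colipase, the cofactor that anchors pancreatic lipase at the surface of fat droplets, stood at 10.42 and 10.49, a difference of 0.07.

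The related genes Pnliprp1 and Pnliprp2 thus went apart, with differences that lay 1.94 from each other on the log2 scale. In RefSeq the 2 genes are neighbours on chromosome 19, with 0 protein-coding genes between them. Pnliprp2 is also known from cytotoxic T cells, from which it was first cloned, and from intestinal tissue. Which cells gave its signal here was not tested.

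Sycn, syncollin, is no enzyme but a protein of the zymogen granule membrane that takes part in exocytosis. It stood at 9.66 in wildtype and 7.92 in the impaired sample, a difference of -1.74 (3.34-fold), close to the median of the members. Over the 8 dimmer members the differences ranged from -2.33 to -1.44, a span of 0.89, with an SD of 0.34 over genes. The spread of single genes between these arrays was 0.253 (the scaled median absolute deviation of all 11124 differences). The impaired signal of these 8 genes was 19.9% to 36.8% of the wildtype signal, against 90.9% for Pnliprp2 and 105% for Clps. In bulk RNA, fewer cells of a type and less RNA per cell cannot be told apart.

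**Figure D2:**
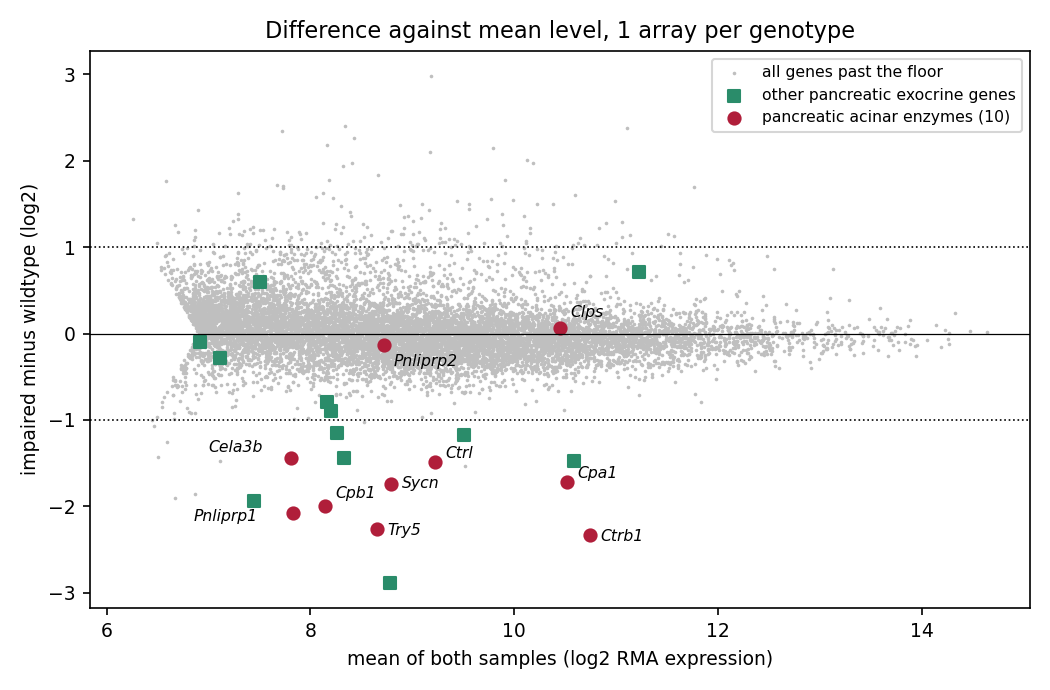
Difference between the arrays (vertical axis, impaired minus wildtype, log2) against the mean of both (horizontal axis, log2 RMA expression) for the 11124 genes past the floor (grey), the 10 acinar genes (red circles) and 12 other pancreatic exocrine genes (green squares); dotted lines mark 2-fold. The 8 dimmer acinar genes lie below the lower dotted line at all levels from dim to bright, and Clps and Pnliprp2 lie within the grey cloud near 0.

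Other secretory products of the exocrine pancreas were looked at in a list of 27 genes. Of these, 15 had a probe set of their own, 5 had only probe sets that several genes share, and the rest were not analysed here. A total of 12 passed the floor, 10 of them below 0 and 2 above, beside 5501 and 5582 of all 11124 genes. Their median was -1.02. Try10 and Try4 passed only through the wildtype sample, which fixed their sign. Of these 12 exocrine genes, 6 were at least 2-fold dimmer in the impaired sample and 0 were 2-fold brighter. The list and its members were set with earlier results of these arrays known, and the count is not independent evidence for the direction of the acinar genes.

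The largest difference in this list, and of all genes past the floor, was that of Reg2, a secreted lectin of the acinar cell, at 10.22 in wildtype and 7.34 in the impaired sample (-2.88, 7.37-fold). Try10, a trypsin, stood at 8.42 and 6.48 (-1.94), its impaired value under the floor. Rnase1, pancreatic ribonuclease, stood at 11.32 and 9.84 (-1.48). The trypsin Prss2 differed by -1.44, 2210010C04Rik, a trypsin gene with a clone name, by -1.18, and Cel, the bile salt-stimulated lipase, by -1.15. Proteases, a lipase, a ribonuclease and a lectin were thus all among the dimmer products.

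Between the 2-fold limit and 0 lay the elastases Cela2a (-0.90, at 8.65 and 7.75) and Cela1 (-0.79, at 8.55 and 7.76). Pla2g1b, pancreatic phospholipase A2, differed by -0.28 and Try4, a trypsin at 6.96 and 6.87, by -0.10, both close to the floor. Above 0 were Spink1, the trypsin inhibitor, at 7.21 in wildtype and 7.80 in the impaired sample (0.60), and Reg1, a lectin related to Reg2, at 10.87 and 11.58 (0.71). The differences of Reg1 and Reg2 lay 3.60 apart. Ctrc, Cela3a and Prss3 did not reach the floor in either sample.

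Pancreatic amylase, the starch-digesting enzyme, is encoded by near-identical genes, and its 3 probe sets list several of them, so none was assigned to a gene. They stood at 11.50, 11.88 and 12.55 in wildtype and at 9.03, 9.83 and 10.52 in the impaired sample. The differences were -2.47, -2.05 and -2.03, within the range of the dimmer members or just past it. The 2 shared probe sets that list the trypsin gene Prss1 differed by -1.35 (9.72 and 8.37) and -0.87 (6.81 and 5.94). The latter set lay under the floor in both samples.

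Of the 22 genes at least 2-fold dimmer in the impaired sample, 8 were the acinar members, 6 were other exocrine products and 1 was Gp2, the major glycoprotein of the zymogen granule membrane (7.62 and 5.72, a difference of -1.90, with the impaired value under the floor). The other 7 were Reg3d, Gkn2, 3 olfactory receptor genes and 2 genes with predicted or clone names. Among the 10 lowest differences of all genes, 6 belonged to members. The members were chosen on this same difference, so nothing is read from either count of them.

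Genes outside all lists were ranked by how near their difference lay to the median of the members, over these 2 samples only. With predicted, clone-named and olfactory receptor symbols left out, the nearest were Reg3d, Gkn2, Slf1, Trav12-2 and Tff1. Several of the genes left out lay nearer than Slf1. Reg3d, a secreted lectin, stood at 7.80 and 5.94 (-1.86, 0.13 from that median), its impaired value under the floor, so the size of its difference is uncertain. Gkn2, gastrokine 2 of the stomach lining, stood at 10.29 and 8.75 (-1.54, 0.19 from it). The remaining 3 were farther off, with Slf1 at -1.0, Trav12-2, a T cell receptor segment, at -0.97 and Tff1, a stomach trefoil peptide, at -0.96. With 2 samples any pair of genes can show like differences, and this is a description only.

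Proteins of the granule and other genes of acinar cells lay on both sides of 0. Of 15 listed, 8 passed the floor, 5 of them above 0 and 3 below, with a median of 0.16, and Gp2 alone was 2-fold dimmer. Of all 11124 genes past the floor, 5582 were above 0 and 5501 below, so nothing is read from this split. Rab3d and Aqp12 passed only through the impaired sample and Gp2 only through the wildtype sample, which fixed their signs. Zg16, a granule lectin that goblet cells also make, stood at 13.45 in wildtype and 13.74 in the impaired sample (0.30). Dmbt1, a mucin-like granule and epithelial protein, stood at 11.68 and 12.54 (0.85). Rab3d, a granule GTPase, differed by 0.30, Vamp8, a SNARE of granule fusion, by 0.03 and Aqp12, an acinar water channel protein, by 0.42. The folding factors Dnajc3 and Sel1l, which most secretory cells use, differed by -0.29 and -0.09. The 7 members of this list below the floor in both samples included Cuzd1, Serpini2, Cckar, the acinar receptor for cholecystokinin, and Pdia2, a pancreatic disulfide isomerase.

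Transcription factors of acinar cells lay on both sides of the floor. Ptf1a stood at 5.41 in wildtype and 5.49 in the impaired sample, and its partner Rbpjl at 6.55 and 6.72. Bhlha15 (MIST1), which shapes the secretory apparatus, stood at 6.02 and 6.59, and Nr5a2 at 5.99 and 6.59. None of these 4 reached 6.91 in either sample, whereas 9 of the 10 enzyme and granule genes did so in both. Of the 10 factors listed, 9 had a value and 4 passed the floor, all above 0 and 0 of them 2-fold brighter. Of all 11124 genes past the floor, 5582 were above 0 and 162 at least 2-fold brighter. The 4 factors past the floor were Gata4 (0.71), Gata6 (0.61), Foxa2 (0.21) and Xbp1 (0.15), which intestinal epithelium or plasma cells also use. Foxa2 (6.73 and 6.93) passed only through the impaired sample, which fixed its sign. The label of the members as acinar products rests on what they encode. The floor is a median level and not a detection call, so a value under it does not show that a factor was absent. Which cells gave the signal of the members was not tested.

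Some exocrine products are known from intestinal epithelium too, and 7 such genes had a value. Of these, 4 were above 0 and 3 below, beside 5582 and 5501 of all 11124 genes. The median of the 7 was 0.30. Rnase1 (-1.48) was the one at least 2-fold dimmer, and Cela1 (-0.79) and Pnliprp2 (-0.14) were the others below 0. Dmbt1, Reg1, Spink1 and Zg16 were those above 0.

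**Figure D3:**
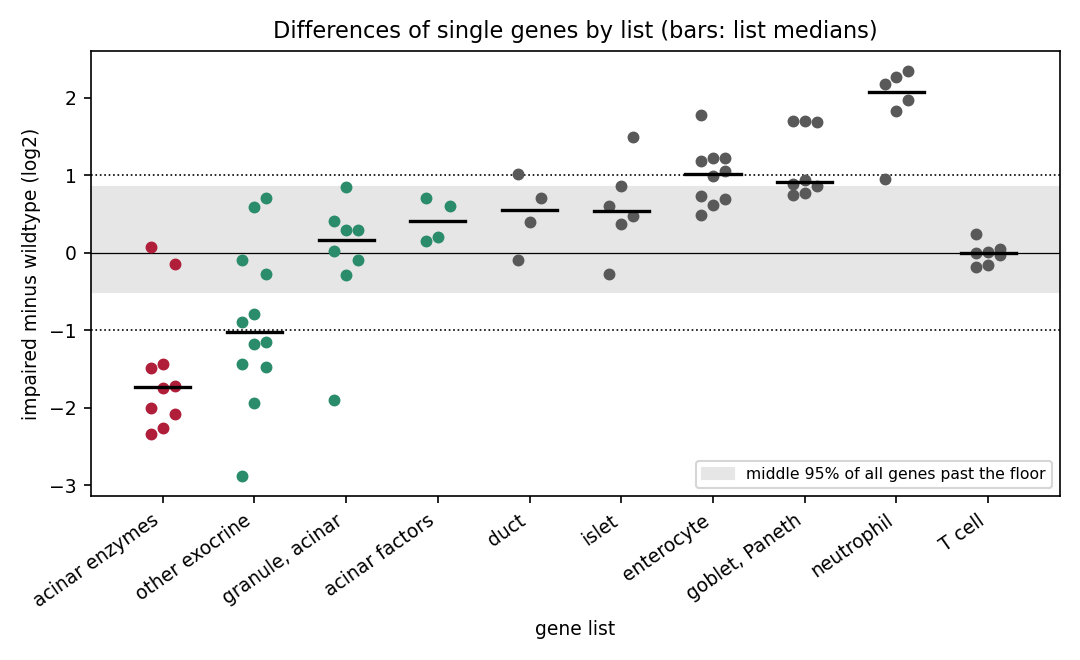
Difference (vertical axis, impaired minus wildtype, log2) of each gene past the floor (points) in 10 gene lists (horizontal axis), with list medians as bars, 2-fold limits as dotted lines and the middle 95% of all genes, -0.51 to 0.85, in grey. Acinar enzymes (median -1.73) and other exocrine products (-1.02) lie lowest, T cell genes lie near 0, and enterocyte, goblet, Paneth and neutrophil genes lie above 0.

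General T cell markers were alike in the 2 samples while markers of several other cell types differed in the opposite direction to the acinar genes. T cell signal was high in both samples, with Cd3e at 13.58 and 13.57 and Cd4 at 13.14 and 13.18. The differences of the 7 of 9 T cell markers with a value ranged from -0.19 to 0.24. These genes mark T cells in general and do not check the Tr1 label. Of all 11124 genes past the floor, 5582 were above 0 and 5501 below. All 10 enterocyte markers were brighter in the impaired sample (median 1.02), with a summed linear signal of 12611 in wildtype and 22661 in the impaired sample. All 8 goblet and Paneth markers with a value were brighter too (median 0.92, sums of 13810 and 27788). Of these, Itln1 and Ang4 (both 6.88 in wildtype) lay under the floor in the wildtype sample. Of 7 neutrophil markers 6 passed the floor and all 6 were brighter (median 2.08). Mmp8 (6.55 in wildtype) and Ltf (6.82) passed only through the impaired sample, which fixed their sign. Camp, under the floor in both samples, differed by 0.13. The sums over all 7 neutrophil markers were 971 and 3592. The summed signal of the 10 acinar genes was 12381 and 4576, so that of the impaired sample was 37.0% of the other. The part of these cell types in the acinar values was not tested.

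Markers listed for pancreatic duct and islet cells, several of which intestinal cells share, had medians above 0. Of 6 duct markers 4 had a value, and these ranged from -0.10 (Muc1) to 1.02 (Krt19), with a median of 0.55. Of 11 islet markers 10 had a value and 6 passed the floor, with a median of 0.54. Ins2, insulin, which defines beta cells, stood at 5.93 and 6.11, under the floor in both samples, as did Iapp at 5.15 and 5.05. Of the 6 islet markers past the floor, 5 were above 0 and 1 below. They included Chga (1.5), Sst (0.86), Pdx1 (0.61), Mafa (0.48) and Gcg (-0.28). Chga, Sst and Gcg are also expressed by enteroendocrine cells of the intestine, and Krt19 is an intestinal epithelial gene as well.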

How the data were processed

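Per the submitters' processing notes, the authors made the deposited log2 values with affy and RMA, which corrects background, equalises the arrays' distributions and summarises probes into probe sets. Versions are not given in these sources. The table held 34760 probe sets with medians of 6.89 (wildtype) and 6.92 (impaired). Of these, 21640 had 1 gene symbol in GEO's platform annotation, 1321 had several and 11799 were not listed. Where a gene had several probe sets, the one brightest on average was taken. The number of arrays, 1 per genotype, limits the precision, and no detection call was used.

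Genes were named by rule: all members, the genes past the floor of 3 lists of pancreatic genes, up to 4 of each other list, and the 5 genes nearest to the members' median, leaving out predicted, clone-named and olfactory receptor symbols. Genes below the floor, Cd3e, Gcg, Ins2, Ltf and Prss1 were named after values were seen. The members and lists were chosen with earlier results of these data known. With 1 array per genotype there is no spread, so sizes were judged by a 2-fold rule. The rule was also run on simulated normal noise with an SD of 0.253. The real differences have wider tails than such noise, so that run cannot give the rule's error on these arrays. Alternatives were another choice of probe set, a loess centring (span 0.3), an offset of 32, other floors and a 1.5-fold rule. Motifs were searched by exact match. Python 3.11.15, numpy 2.4.6, pandas 2.3.3, statsmodels 0.14.6 and matplotlib 3.10.9 were used.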

Additional observations from a re-analysis of the deposited data

How the results depend on the processing

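The 8 members at least 2-fold dimmer in the impaired sample numbered 8 under each alternative run, except 7 with a stricter floor (8.86, the 75th percentile), which kept 8 of the 10 members and left out Cela3b and Pnliprp2. The other exocrine genes called dimmer, 6 in the main run, numbered 8 under the 1.5-fold rule. With the stricter floor they numbered 4, and that floor kept 5 of the 12 exocrine genes past the main floor. The median of the members was -1.68 after loess centring and -1.65 with the offset of 32. With that offset the difference of Pnliprp1 was -1.81 in place of -2.08, a move larger than the spread of single genes (0.253), since an offset shrinks differences of dim genes by construction. Of 58 recomputed values, 57 stayed within that spread or, for counts, within 1.5 times. Since each member has 1 probe set, the choice of probe set could not alter the members. Dropping the floor could not alter their count either, as all 10 pass it. Those values are among the 57 by construction, so the tally is no measure of stability. No paired analysis was possible because each genotype has 1 array and the result comes from no test. Signal near the floor limits Pnliprp1, Cela3b and Cpb1.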
